A study of Mus musculus with 2 samples.

Results

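The 10 genes described here encode the core and accessory subunits of Polycomb repressive complex 2 (PRC2), namely *Ezh2*, *Ezh1*, *Eed*, *Suz12*, *Rbbp4*, *Rbbp7*, *Mtf2*, *Phf19*, *Jarid2* and *Aebp2*. They were taken by gene symbol, and all 10 were found among the 24421 gene symbols of the count files. The data came from purified hematopoietic stem cells (HSCs), the bone marrow cells that maintain all blood lineages, of C57BL/6 mice. WT cells carried the genotype Ezh2 +/+ CreERT+/-, and the other cells carried Ezh2 Δ/Δ CreERT+/-, so that both groups held the tamoxifen-inducible recombinase. Donor marrow (CD45.2), floxed at *Ezh2* in the second group, had been transplanted into irradiated CD45.1 recipients, which were then given 100 µl of tamoxifen at 10 mg/ml on each of 5 days. The sort, 1 month later, took lineage-negative cells with c-Kit and Sca-1 that were Flt3-, CD34- and CD48- but CD150+. Each group had 1 library, so no difference given here has a replicate check. The labels do not give the promoter behind CreERT, the ages, the number of mice behind a library or the share of cells in which *Ezh2* was deleted.

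PRC2 places methyl groups on lysine 27 of histone H3, and the trimethylated form of that lysine marks silenced developmental genes. Either EZH2 or its paralogue EZH1 carries the catalytic SET domain, and neither is active without EED and SUZ12, while RBBP4 and RBBP7 bind histones. Accessory proteins divide the complex into a form with a Polycomb-like protein, such as MTF2 or PHF19, and a form with JARID2 and AEBP2. In blood, EZH2 is known to prevail in dividing progenitors and EZH1 in resting cells, and loss-of-function mutations of the human *EZH2* gene occur in myeloid malignancies.

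Most PRC2 genes had like levels in both libraries. Of the 10 members, 1 was at least 1.5-fold apart, *Phf19*, which was higher in the library labelled Ezh2 KO, and 0 were at least 1.5-fold lower. Of 12588 genes with a mean of at least 1 CPM (counts scaled to a library total of 1000000), all 10 members included, 20.5% were at least 1.5-fold apart, 10.5% higher and 10.0% lower. The median log2 ratio of the members, the library labelled Ezh2 KO over WT, was 0.10, against -0.0032 for all genes tested, with 6 members above 0 and 4 below. An exact 95% interval for counting error left out 0 for 4 members, *Eed*, *Rbbp4*, *Phf19* and *Jarid2*, and for 40.0% of all genes tested, which is the same share. Summed over the members, the level was 1294 CPM in WT against 1374 CPM for the other library. Likeness of pattern has no content over 2 libraries, so no genes of like pattern were sought.

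**Figure D1:**
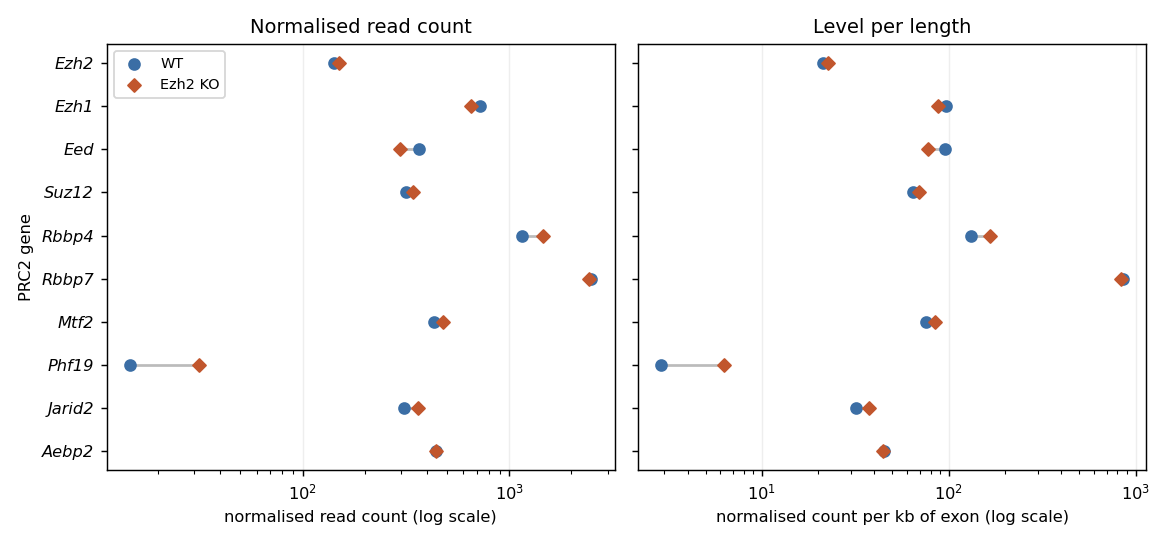
Level of each PRC2 gene in the WT library (circles) and in the library labelled Ezh2 KO (diamonds), as normalised read count (left) and per kilobase of exon (right), both on log axes, with 1 library a group. The markers of 1 gene lie close together except for *Phf19*, at 14.6 and 31.5 normalised counts, and *Rbbp7* stands highest in both panels.

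The depth was 5763118 gene counts in WT against 4157280 for the library labelled Ezh2 KO, and the smallest level that 3 counts could show was 0.521 and 0.722 CPM. The sorted identity was checked on the RNA of markers. The sort itself read surface protein, so RNA of an excluded marker does not test the gate. The 8 HSC markers summed to 3814 and 4101 CPM (WT first), and 0 of them were near the floor. Of these, 2 were at least 1.5-fold lower in the library labelled Ezh2 KO, *Slamf1* (CD150) and *Fgd5*, beside 10.0% of all genes tested. The 8 markers had a median log2 ratio of 0.03, with 4 above 0 and 4 below. Among the markers that the sort excluded, *Cd48* had 10.3 and 12.8 normalised counts and *Cd34* 821.2 and 966.0. *Flt3* had 84.1 and 163.1 and was at least 1.5-fold higher in the library labelled Ezh2 KO (log2 ratio 0.95, 0.57 to 1.34). Markers of other blood cells moved between the libraries. The 7 eosinophil genes summed to 1.21 and 774 CPM, with 5 at 0 in WT and *Prg2* at 2030 counts in the other library. Most of the second sum came from *Prg2* (488 CPM) and *Epx* (241 CPM). The receptor genes of the list had few counts, 2 and 8 for *Il5ra* and 5 and 4 for *Ccr3*, which did not rise. The 8 neutrophil genes summed to 1846 and 3672 CPM. Of these, 6 were at least 1.5-fold higher, beside 10.5% of all genes tested, and *Elane* was lower. Erythroid genes summed to 48.9 and 184 CPM, with *Hba-a1* and *Hbb-bs* listed at 0 in both libraries. Reads with several alignments entered no gene count, so a 0 does not show that RNA of these globin genes was absent. B lymphoid genes summed to 4.86 and 32.5 CPM, T and NK genes to 20.1 and 36.6, and monocyte genes to 23.8 and 25.3. *Nkg7* made up most of the T and NK sum, at 20.1 and 26.2 CPM. Of the 4 monocyte genes, 1 was at least 1.5-fold higher and 2 lower, beside 10.5% and 10.0% of all genes tested. The higher one, *Adgre1* (0 and 9 counts), passed the filter of 1 CPM only through the library labelled Ezh2 KO. The lower ones were *Csf1r* (24 and 5 counts) and *Cd14* (12 and 5), whose interval holds 0 (-2.68 to 0.79). *Xist* had 801 and 4 counts while the Y-linked *Ddx3y* had 0 and 275, so sex and genotype cannot be told apart. The part of these cells and of sex in the member values was not tested. In bulk RNA, fewer cells of a type and less RNA per cell cannot be told apart.

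*Ezh2*, the targeted gene and the main methyltransferase of dividing cells, lies on the minus strand of chromosome 6 at 47530139 to 47595341 (mm10). It had 166 counts in WT against 129 for the library labelled Ezh2 KO, corresponding to 142.5 and 150.3 normalised counts. The scaled level under the knockout label was thus not the lower one. The log2 ratio was 0.08 (exact 95% interval -0.27 to 0.42, counting error only). Among the 500 genes nearest in mean normalised count, the middle 90% of log2 ratios ran from -0.66 to 0.65, and 82.4% were as far from 0 as *Ezh2* or farther. The label was therefore kept as a name, without an *Ezh2* level that bears it out.

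The *Ezh2* transcript with the longest coding sequence has 20 exons and 2787 bases, of which a median internal exon takes 4.27%. With even coverage, absence of 1 such exon would move the log2 ratio by -0.06, and absence of the longest pair of adjacent internal exons, 411 bases, by -0.23. Both shifts lie within the interval of the measured ratio. These exons were chosen by size alone, not by the deletion. The reads along the gene were not used here, so loss of a part of the *Ezh2* message was not tested.

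*Ezh1* (chromosome 11, 101191115 to 101226463, minus strand), the catalytic paralogue, was the more abundant of the pair. It had 841 counts in WT against 559 for the library labelled Ezh2 KO, corresponding to 721.7 and 651.4 normalised counts. The log2 ratio was -0.15 (-0.30 to 0.01), well inside the middle 90% of genes of like level (-0.44 to 0.33). Per kilobase of exon, the level of *Ezh1* was 97.0 normalised counts in WT against 87.6 for the other library, and that of *Ezh2* was 21.3 and 22.5. *Ezh1* thus exceeded *Ezh2* per length by a factor of 4.55 in WT (exact 95% interval 3.85 to 5.40) against 3.89 for the library labelled Ezh2 KO (3.21 to 4.75). With the longest transcript of each gene in place of all exons, these factors were 3.36 and 2.87. *Ezh2* took 16.5% of the counts of the pair in WT (14.2% to 18.9%) against 18.8% for the other library (15.9% to 21.9%), and the log2 odds differed by 0.23 (-0.15 to 0.60), an interval that holds 0. This share does not depend on the scaling between libraries. The interval allows a fall of the *Ezh2* odds to 0.899 and a rise to 1.52 of the WT value.

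The sequences of the catalytic pair are shown because a balance between paralogues depends on reads that can be told apart. The 60-base windows of the 2 coding sequences that are most alike, at the read length of the study, differ at 7 bases. In these lines, from GENCODE M21 transcripts on GRCm38, the differing bases are in capitals, and each window crosses an exon junction. The *Ezh1* window covers coding bases 2170 to 2229 (chr11:101192963-101193241, minus strand) and the *Ezh2* window coding bases 2158 to 2217 (chr6:47530565-47531763, minus strand).
Ezh1: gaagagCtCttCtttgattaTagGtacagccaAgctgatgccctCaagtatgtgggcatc
Ezh2: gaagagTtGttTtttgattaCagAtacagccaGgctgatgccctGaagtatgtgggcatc

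Of all 60-base windows in the annotated transcripts of *Ezh2* and *Ezh1*, 0 of 7190 and 0 of 7548 occurred in a gene elsewhere in the annotation. Exons of *Ezh2* overlapped a gene on the opposite strand, *Gm26625*, over 174 bases, or 2.61% of its exon length. *Ezh1* overlapped no other exon.

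*Eed* (chromosome 7, 89954654 to 89980983, minus strand) encodes the subunit that binds trimethylated lysine 27 and stimulates the enzyme. It was the member with the lowest ratio. It had 426 counts in WT against 254 for the library labelled Ezh2 KO, corresponding to 365.6 and 296.0 normalised counts, with a log2 ratio of -0.30 (-0.53 to -0.08). That is beyond counting error but inside the middle 90% of genes of like level (-0.52 to 0.46), of which 150 of 500 were as far from 0. *Suz12* (chromosome 11, 79993106 to 80034123, plus strand), the scaffold on which the core and accessory subunits assemble, had 370 and 295 counts, corresponding to 317.5 and 343.8 normalised counts. Its log2 ratio was 0.11 (-0.11 to 0.34). *Eed* took 53.5% of the counts of the pair in WT (49.98% to 57.0%) against 46.3% for the library labelled Ezh2 KO (42.0% to 50.5%). Per kilobase of exon its share was 59.8% and 52.7%, the larger part in both. The log2 odds of *Eed* against *Suz12* were lower by 0.42 in the library labelled Ezh2 KO (difference -0.42, -0.74 to -0.10), 1 of 3 intervals among 5 pairs compared that left out 0. Over single genes tested, 40.0% of counting intervals left out 0, and the share over other gene pairs was not computed. No replicate shows how far the balance of *Eed* and *Suz12* moves between libraries of 1 group.

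*Rbbp7* and *Rbbp4* encode WD-repeat histone chaperones that PRC2 shares with other complexes, and they were the most abundant members. *Rbbp7* (X, 162760402 to 162779092, plus strand) had 2912 counts in WT against 2093 for the library labelled Ezh2 KO, corresponding to 2499 and 2439 normalised counts, with its log2 ratio at -0.035 (-0.12 to 0.05). This difference was within counting error. *Rbbp7* is X-linked, and the libraries differed in *Xist*. The 426 X-linked genes tested, without *Xist* and its antisense gene, had a median log2 ratio of -0.03. *Rbbp4* (chromosome 4, 129307100 to 129335370, minus strand) had 1344 and 1252 counts, corresponding to 1153 and 1459 normalised counts. It was higher in the library labelled Ezh2 KO by a factor of 1.26, a log2 ratio of 0.34 (0.23 to 0.45). This was the only member outside the middle 90% of genes of like level (-0.36 to 0.27), and 9.80% of those genes were as far from 0. Such a band leaves out 1 of 10 genes by its definition, which is also the share of the 10 members outside.

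Within the pair, *Rbbp4* took 31.6% of the counts in WT (30.2% to 33.0%) against 37.4% for the library labelled Ezh2 KO (35.8% to 39.1%), and these intervals do not overlap. They cover counting error only and are narrow, as the pair had 4256 and 3345 counts. Over single genes tested, 40.0% of counting intervals left out 0, and no such share over other gene pairs was computed. The log2 odds were higher by 0.37 (0.23 to 0.51). Their most alike coding windows differ at 6 of 60 bases, which are in capitals in the next lines and show that the paralogues can be told apart. The *Rbbp4* window is chr4:129317701-129317863 (minus strand, GRCm38) and the *Rbbp7* window is chrX:162775792-162777829 (plus strand), each across an exon junction.
Rbbp4: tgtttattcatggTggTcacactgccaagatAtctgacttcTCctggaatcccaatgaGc
Rbbp7: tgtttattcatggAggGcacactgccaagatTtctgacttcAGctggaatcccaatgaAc

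Both counts carry an uncertainty from other loci. Of the *Rbbp4* exon length, 18.1% (1578 bases) overlapped *Sync* and *Gm26722* on the opposite strand, and the strand setting of the counting is not given in the sources used here. Of the *Rbbp7* windows, 5.53% (164 of 2964) occurred again in *Gm6382*, where a read could align more than once. For *Rbbp4* this share was 0.193%, over 4 genes elsewhere.

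*Mtf2* and *Phf19* encode Polycomb-like proteins, which bring PRC2 to unmethylated CpG islands. *Mtf2* (chromosome 5, 108065674 to 108109004, plus strand) had 502 counts in WT against 412 for the library labelled Ezh2 KO, corresponding to 430.8 and 480.1 normalised counts, with a log2 ratio of 0.16 (-0.04 to 0.35). *Phf19* (chromosome 2, 34893757 to 34914026, minus strand) had 17 and 27 counts, corresponding to 14.6 and 31.5 normalised counts. It was the least expressed member and the one with the highest ratio, 2.08-fold on the scale of normalised counts plus 1. The log2 ratio was 1.06, with an interval of 0.18 to 2.08. Low counts spread widely, and the middle 90% of genes of like level ran from -1.70 to 1.68. *Phf19* took 3.28% of the counts of the pair in WT (1.92% to 5.19%) against 6.15% for the other library (4.09% to 8.82%), so *Mtf2* was the main Polycomb-like message in both. The log2 odds differed by 0.95, with an interval of 0.0007 to 1.94. The closest coding windows of the only member past 1.5-fold and its paralogue differ at 12 of 60 bases (capitals), more than in the pairs already shown. They lie at chr5:108088055-108092085 (plus strand, GRCm38) and chr2:34904126-34905484 (minus strand), each across an exon junction.
Mtf2: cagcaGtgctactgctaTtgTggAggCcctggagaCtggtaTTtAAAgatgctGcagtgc
Phf19: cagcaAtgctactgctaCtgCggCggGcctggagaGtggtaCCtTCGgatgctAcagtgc

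*Jarid2* and *Aebp2* encode the DNA- and nucleosome-binding subunits of the other form of PRC2. *Jarid2* (chromosome 13, 44729474 to 44921643, plus strand) had 362 counts in WT against 312 for the library labelled Ezh2 KO, corresponding to 310.7 and 363.6 normalised counts. The log2 ratio was 0.23 (0.0039 to 0.45), and 45.4% of genes of like level were as far from 0. *Aebp2* (chromosome 6, 140622663 to 140678472, plus strand) had 515 and 378 counts, corresponding to 441.9 and 440.5 normalised counts. Its log2 ratio was -0.0048 (-0.20 to 0.19), the closest to 0 of the members, and it was 0.025 when scaled by total counts, which moved the median of all genes to 0.03. *Jarid2* took 41.3% (38.0% to 44.6%) and 45.2% (41.5% to 49.0%) of the counts of the pair, with log2 odds that differed by 0.23 (-0.07 to 0.53).

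**Figure D2:**
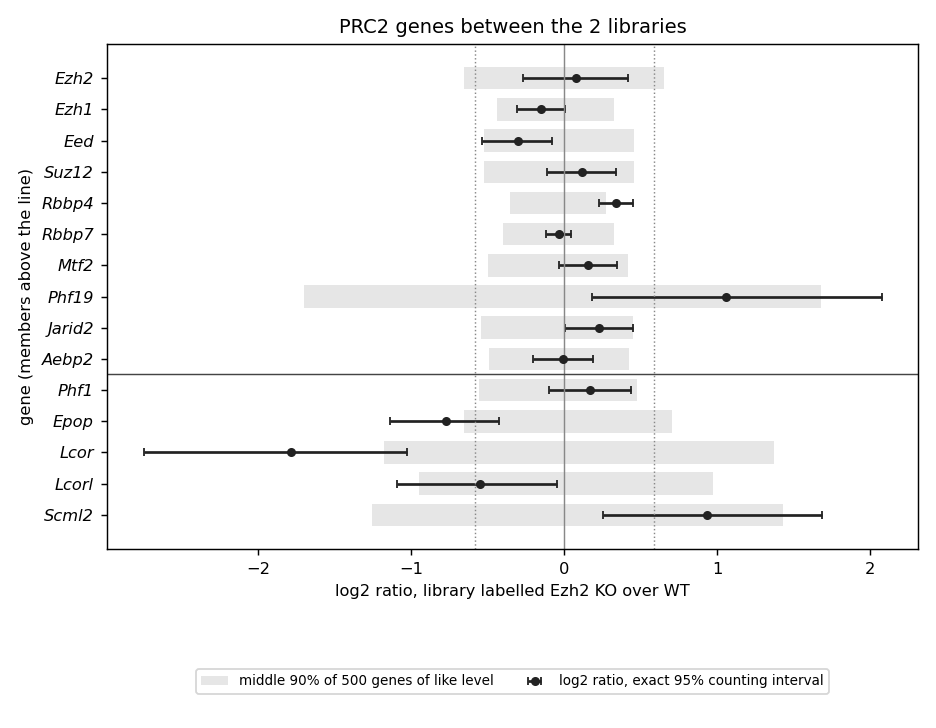
Log2 ratios of the 10 members and of 5 further PRC2 partners between the libraries (points), with exact 95% intervals for counting error (bars) and the middle 90% of the 500 genes nearest in mean normalised count (grey). Dotted lines mark 1.5-fold. Among the members only *Rbbp4* (0.34) lies outside its grey band, and among the partners *Epop* (-0.77) and *Lcor* (-1.78) do. Such a band leaves out 1 of 10 genes by its definition.

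**Figure D3:**
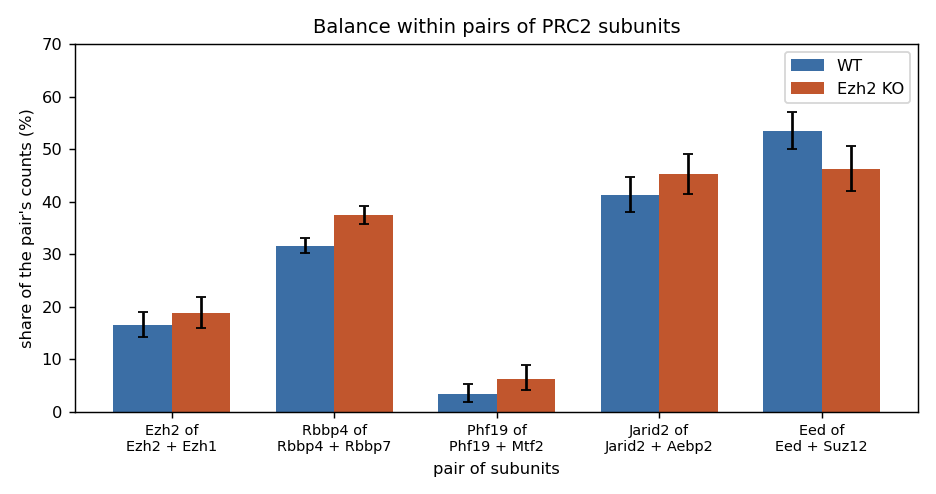
Share of the first gene in the counts of a pair of subunits, in percent, for WT and for the library labelled Ezh2 KO, with exact 95% binomial intervals. *Ezh2* stays a minor part of the catalytic pair (16.5% and 18.8%), and the shares of *Rbbp4* (31.6% and 37.4%) have intervals that do not overlap. The intervals cover counting error only, not the spread between libraries.

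The members were then ordered by level per kilobase of exon. In WT the order from the top was *Rbbp7* (859 normalised counts per kilobase), *Rbbp4* (132), *Ezh1* (97.0), *Eed* (95.5), *Mtf2* (75.6), *Suz12* (64.2), *Aebp2* (44.9), *Jarid2* (32.0), *Ezh2* (21.3) and *Phf19* (2.90). The median of 12474 genes with a known length was 38.3. *Rbbp7* lay above 98.2% of those genes, *Ezh1* above 74.0%, *Ezh2* above 36.2% and *Phf19* above 8.02%. *Ezh1* and *Eed* did not differ beyond counting error (ratio 1.02, 0.903 to 1.14), and every other pair of neighbours in WT did. In the library labelled Ezh2 KO the order was the same but for *Mtf2* (84.3) and *Eed* (77.3), which changed places, and there the neighbours *Ezh1* and *Mtf2*, *Mtf2* and *Eed*, and *Eed* and *Suz12* did not differ beyond counting error. *Ezh2* was next to last in both libraries, at 22.5 in the library labelled Ezh2 KO. These orders rest on the length used. With the longest transcript *Ezh2* passed *Jarid2* (51.1 and 37.2 in WT), and with the coding length *Aebp2* passed *Eed* in both libraries, while *Rbbp7*, *Rbbp4* and *Phf19* kept their places under each length.

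Summed by role, the catalytic pair had 118 normalised counts per kilobase in WT against 110 for the library labelled Ezh2 KO, a ratio of 0.930. Each of *Eed* and *Suz12* lay below that sum, and the pair of histone chaperones far above it, at 991 and 1005. The Polycomb-like pair had 78.5 and 90.5, and *Jarid2* with *Aebp2* had 76.8 and 82.1, on the same scale of level per length.

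**Figure D4:**
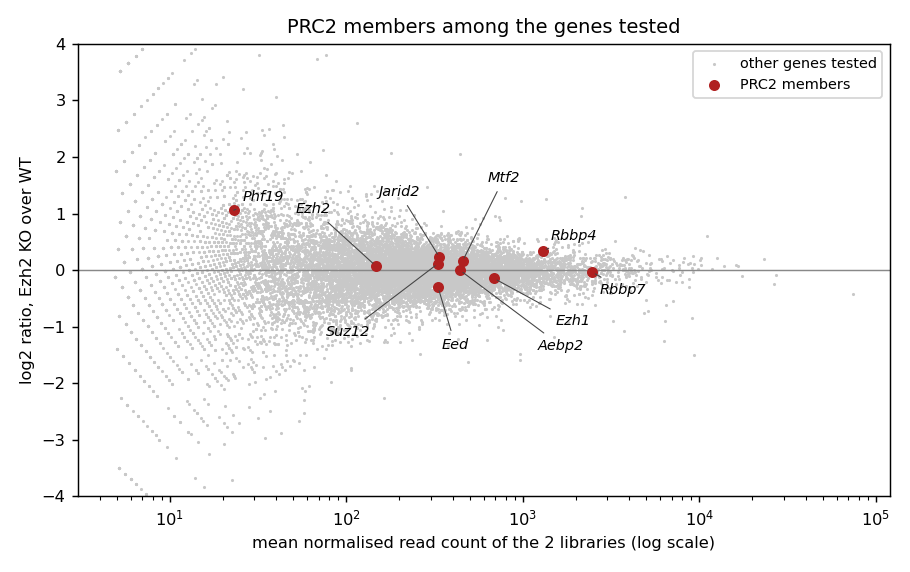
Log2 ratio of the library labelled Ezh2 KO over WT against the mean normalised read count (log axis) for the genes tested (grey) and the 10 members (red), with 50 genes beyond a log2 ratio of 4 not drawn. Except *Rbbp4*, the members lie within the middle 90% of genes of like level, and *Phf19*, at a mean of 23.0 normalised counts, lies where ratios spread more widely than at the levels of the other members.

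Of 6 further PRC2 partners, *Ezhip*, which encodes an inhibitor of the enzyme, had 0 counts in both libraries, and 5 were tested. *Epop* (listed as *E130012A19Rik*), which links PRC2 to elongins, had 221 counts in WT against 95 for the library labelled Ezh2 KO, corresponding to 189.7 and 110.7 normalised counts. Its log2 ratio was -0.77 (-1.14 to -0.42), below the middle 90% of genes of like level. *Lcor*, whose locus also gives rise to the PRC2 partner PALI1, had 73 and 15 counts, corresponding to 62.6 and 17.5 normalised counts, with a log2 ratio of -1.78 (-2.75 to -1.03), and 17 of its 500 neighbours were as far from 0. Its paralogue *Lcorl* had 96 and 48 counts (-0.55, -1.09 to -0.04). The Polycomb-like gene *Phf1* had 258 and 214 counts (0.17, -0.10 to 0.44), and *Scml2* had 30 and 43 (0.93, 0.25 to 1.68). Of the 5, 2 were thus at least 1.5-fold lower and 1 at least 1.5-fold higher, beside 10.0% and 10.5% of all genes tested. The median was -0.55, and *Epop*, *Lcor* and *Lcorl* were the 3 below 0. Among the 500 genes of like level, 149 were as far from 0 as *Lcorl* and 105 as *Scml2*. *Phf1*, *Lcor*, *Lcorl* and *Scml2* were named after their values were seen.

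PRC1, the complex that ubiquitinates histone H2A and binds the mark of PRC2, had 21 of 22 listed genes tested, with a median log2 ratio of 0.04. Of these, 1 was at least 1.5-fold higher, *Phc3* (54.1 and 95.6 normalised counts), and 3 were at least 1.5-fold lower. Those were *Pcgf6* (145.0 and 85.1), *L3mbtl2* (351.0 and 233.1), both of the non-canonical complex PRC1.6, and *Cbx8* (64.4 and 26.8), a reader of trimethylated lysine 27 named after its value was seen. Over all genes tested, 10.5% were at least 1.5-fold higher and 10.0% lower. Among the 500 genes of like level, 61 were as far from 0 as *Phc3*, 45 as *Pcgf6*, 23 as *L3mbtl2* and 45 as *Cbx8*. The ring finger gene *Rnf2*, which carries the catalytic activity, had 548.4 and 630.4 normalised counts (0.20, 0.03 to 0.37), and it too was named after its value was seen. Of the demethylases that remove the mark, *Kdm6a* was lower, at 417.9 and 250.5 normalised counts (-0.74, -0.98 to -0.50). *Kdm6a* is X-linked and known to escape X inactivation, and its Y-linked homologue *Uty* had 0 and 106 counts, so genotype and sex cannot be told apart here. *Kdm6b* had 45.5 and 75.8 normalised counts (0.72, 0.19 to 1.29).

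Listed PRC2 targets and fetal genes were mostly not detected. Of 26 listed developmental regulators, *Ink4* inhibitors and fetal genes, 17 had 0 counts in both libraries and 19 had at most 3 counts in both. *Isl1* had 0 counts in WT against 12 for the library labelled Ezh2 KO, and *Lhx2* had 0 and 4, while *Gata6* had 6 and 0. *Cdkn2a*, which encodes p16 and p19ARF and is a classical PRC2 target, had 0 and 1 counts, and *Cdkn2b* 0 and 0. The most abundant of the list were *Igf2bp2* (24.0 and 25.6 normalised counts) and *Hmga2* (23.2 and 19.8). *Isl1* was the 1 of 5 tested genes at least 1.5-fold apart, beside 20.5% of all genes tested. With 0 counts in WT, *Isl1* passed the filter of 1 CPM only through the library labelled Ezh2 KO. Its place past 1.5-fold was therefore fixed by the filter and shows nothing about the list. *Isl1*, *Lhx2*, *Gata6* and the *Ink4* genes were named after their values were seen.

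Levels of *Ezh2* and its partners are known to follow cell division, so cell-cycle genes are given beside them. The 20 listed genes had a median log2 ratio of -0.04 and summed to 2092 CPM in WT against 1937 CPM for the library labelled Ezh2 KO. Of these, 9 had ratios above 0 and 11 below, and 3 were at least 1.5-fold higher and 0 lower, beside 20.5% of all genes at least 1.5-fold apart. *Mki67* had 37.8 and 83.9 normalised counts, *Ccnb1* 125.3 and 207.4, and *Birc5* 88.4 and 148.0. Other mitotic genes of the list varied in direction, with log2 ratios of -0.43 for *Aurkb* (-0.82 to -0.06), -0.38 for *Cdk1* (-0.70 to -0.07), 0.10 for *Ccnb2* and 0.38 for *Top2a*. The 6 replication licensing genes *Mcm2* to *Mcm7* all had ratios below 0, from -0.41 for *Mcm2* to -0.04 for *Mcm4*. These 6 genes, *Aurkb*, *Cdk1*, *Ccnb2* and *Top2a* were named after their values were seen. The part of these shifts in the values of the PRC2 genes was not tested.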

How the data were processed

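Total RNA of sorted HSCs was amplified with a SMARTer low-input kit and sequenced as single reads. According to the study's methods, the authors aligned reads to mm10 with TopHat2 2.0.13 and Bowtie2 2.1.0. The deposited values are raw counts per gene symbol, not normalised by the authors. StringTie is named as their source, while the 5 closing entries bear htseq-count names. These entries, which name no gene, held 56.1% of the total in WT and 56.9% in the other library and were left out of library sizes.

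Counts were divided by DESeq2 1.42.0 median-of-ratios size factors (1.17 for WT, 0.858 for the other library, R 4.3.3). Ratios are log2 of the normalised count plus 1. With 1 library a group, no test across replicates could be fitted, and intervals are exact binomial (Clopper-Pearson) or exact conditional odds-ratio intervals from scipy 1.17.1. They treat each read as an independent draw and cover counting error only, not the spread between libraries. Reads copied by PCR are not independent molecules, so the intervals may be too narrow even for counting error. Alternatives used TMM (edgeR 4.0.16) or total-count scaling, pseudocounts of 0.5 and 5, thinning, other filters and other lengths. Procedures were tested on counts simulated with counting error only, which cannot show how the intervals hold for amplified libraries.

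Positions and lengths came from GENCODE M21 (GRCm38, the assembly of mm10), matched for 23978 symbols, 644 by older names. A count per kilobase uses all exons of a gene. Windows of 60 bases were searched in annotated transcripts, not in the genome.

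Members and lists were chosen with earlier results of these data known. The rule for named genes took all members and, from each pathway list, genes past 1.5-fold whose mean normalised count was 50 or more, and otherwise the 2 most abundant. It did not cover the cell type marker lists, which are given by sums and counts, and the single markers named from them, the sex-linked genes and *Ezhip* were chosen after their values were seen, as were other genes where the text says so.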

Additional observations from a re-analysis of the deposited data

How the results depend on the processing

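No paired analysis was possible because only 1 library stands for either genotype. Under scaling by TMM or by total counts, under pseudocounts of 0.5 or 5, and with WT thinned, all 50 log2 ratios of the 10 members stayed within their counting intervals. *Ezh2* ranged from 0.08 to 0.16, the latter with thinning, and *Phf19* from 0.90 to 1.09. *Aebp2* ranged from -0.03 to 0.03 and took either sign. The median of the members ranged from 0.09 to 0.13. The 1 member at least 1.5-fold apart, *Phf19*, also passed 2-fold, but 0 members passed with a minimum of 10 CPM, which leaves *Phf19* out. The level of *Ezh1* over *Ezh2* per kilobase, 4.55 in WT and 3.89 in the other library, became 3.36 and 2.87 with the longest transcript, 5.04 and 4.31 with the coding length and 5.07 and 4.33 without a length. Per kilobase, *Rbbp4* took 13.3% and 16.6% of its pair in place of 31.6% and 37.4%, and *Eed* 59.8% and 52.7% in place of 53.5% and 46.3%. Depth limits *Phf19*, at 17 and 27 counts, most.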

Other observations

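RBBP4 and RBBP7 also serve the NuRD, Sin3 and CAF-1 complexes, and 17 genes of these complexes were measured. Of these, 0 were at least 1.5-fold apart, beside 20.5% of all genes tested. The median log2 ratio was -0.03 with 8 genes above 0 and 9 below. The most abundant were *Mta2*, a NuRD subunit, with 2186 normalised counts in WT against 1864 for the library labelled Ezh2 KO (log2 ratio -0.23, exact 95% counting interval -0.32 to -0.14), and *Gatad2a*, with 1069 and 1050. *Mta1* had the lowest ratio, at 319.2 and 229.6 normalised counts (-0.47, -0.73 to -0.22). *Chaf1b*, a subunit of the chromatin assembly factor that includes RBBP4, had 599.0 and 706.2 (0.24, 0.08 to 0.40). *Mta1* and *Chaf1b* were named after their values were seen.

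Enzymes that limit PRC2 through other marks were also listed. The 5 methyltransferases of histone H3 lysine 36, a mark that inhibits PRC2, had a median log2 ratio of 0.08. Of these, 0 were at least 1.5-fold apart, beside 20.5% of all genes tested. The most abundant were *Ash1l* (378.4 and 399.7 normalised counts) and *Whsc1* (271.2 and 322.8). Of the H2A deubiquitinase genes, *Bap1* had 878.7 and 864.7 normalised counts, *Asxl1* 390.5 and 332.1 and *Asxl3* 0 counts in both libraries, all 3 named after their values were seen. *Asxl2* was higher in the library labelled Ezh2 KO, at 113.3 and 195.8 normalised counts, a log2 ratio of 0.78 (0.45 to 1.13), and 28 of 500 genes of like level were as far from 0.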
